A study of Mus musculus with 18 samples.

Results

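The collagen genes were followed across 6 groups of sorted mouse dermal cells, with 3 expression arrays per group. Members were all genes whose single symbol in the array's annotation has the form of a collagen alpha chain (Col, a number, a, a number). The rule found 42 of the 18193 genes measured. It covers 82 probe sets, and where a collagen had several (27 did) its brightest one, by the mean over all 18 arrays, stands for it. The rule used no difference between groups. By textbook type the 42 are 11 fibrillar chains, 6 basement membrane network chains, 9 fibril-associated chains (FACIT), 5 beaded filament chains, 3 short chain network chains, 4 transmembrane chains, 2 multiplexins, the anchoring fibril chain Col7a1, and Col26a1, which belongs to none of these.

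The study used the R26mTmG reporter, in which Cre recombination turns cells and all their descendants from red (RFP) to green (GFP) for good. A green cell therefore descends from a cell that once expressed the Cre driver and need not express it now. In En1Cre; R26mTmG mice, dorsal dermis gave the EPF cells (GFP positive, RFP negative) and the ENF cells (RFP positive, GFP negative). Their age label is postnatal day 56, although the protocol has the back skin taken at 30 days of age, and nothing in the labels settles which is right. Dorsal and Ventral cells were green, not red, cells of dorsal and of ventral dermis of the same line at day 30. Cranial and Oral cells were green, not red, cells of cranial dermis and of oral mucosa of Wnt1Cre; R26mTmG mice at day 30. En1 (Engrailed-1) is a homeobox factor of embryonic patterning, and Wnt1 is expressed at the dorsal neural tube, where the neural crest arises. All mice were untreated, and every sort also removed cells positive for the markers EpCAM, CD45, CD31, Tie2 and one spelled Tie119 in the labels, or for the viability dye DAPI. The labels do not say whether the arrays of a group came from separate animals, so p-values measure only the spread between these arrays.

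Collagens are secreted or membrane-bound proteins whose alpha chains wind around each other in a triple helix. In dermis, collagen I and III form the banded fibrils that give skin its tensile strength. The minor fibrillar collagens V and XI enter the core of these fibrils and are known to limit their width, and FACIT collagens such as XII and XIV bind the fibril surface. Collagen IV forms the sheet-like network of basement membranes, collagen VII anchors the epidermal basement membrane to the dermis, and collagen VI forms beaded filaments around cells. Collagen VIII is a short chain that forms lattices, known from the basement membrane of the cornea and from vessel walls. All of these chains are hydroxylated and folded in the endoplasmic reticulum, and the fibrillar chains are trimmed outside the cell and then crosslinked.

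Before the values, the promoters of 4 chains are shown: Col11a1 and Col23a1, the chains that passed the test between EPF and ENF, and Col8a1 and Col8a2, which with Col11a1 were higher at the Wnt1Cre sites. Each sequence is the 250 bases before the RefSeq transcription start (mouse GRCm38.p6), 5′ to 3′ on the strand of the gene, with the CCAAT box, the motif TATAAA and the GC box GGGCGG in capitals, searched on both strands. Col11a1 lies on the plus strand, and its window is chr3:114030290-114030539.
Col11a1: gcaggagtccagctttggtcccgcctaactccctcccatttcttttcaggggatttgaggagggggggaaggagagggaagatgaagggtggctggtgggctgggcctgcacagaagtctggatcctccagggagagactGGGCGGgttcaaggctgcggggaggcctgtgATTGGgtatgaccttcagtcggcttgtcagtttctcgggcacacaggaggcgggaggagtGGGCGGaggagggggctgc
Col23a1 lies on the plus strand, and its window is chr11:51289670-51289919.
Col23a1: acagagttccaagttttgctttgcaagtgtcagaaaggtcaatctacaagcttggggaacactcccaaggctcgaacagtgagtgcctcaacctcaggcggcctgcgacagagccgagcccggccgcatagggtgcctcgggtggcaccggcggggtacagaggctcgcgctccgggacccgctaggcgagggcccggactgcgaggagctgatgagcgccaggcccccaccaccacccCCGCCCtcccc
Col8a1 lies on the minus strand, and its window is chr16:57754738-57754987.
Col8a1: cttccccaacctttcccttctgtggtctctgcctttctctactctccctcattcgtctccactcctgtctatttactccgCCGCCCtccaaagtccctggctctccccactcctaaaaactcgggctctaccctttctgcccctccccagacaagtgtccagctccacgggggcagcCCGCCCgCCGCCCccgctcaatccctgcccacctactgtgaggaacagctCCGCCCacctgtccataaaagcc
Col8a2 lies on the plus strand, and its window is chr4:126286544-126286793.
Col8a2: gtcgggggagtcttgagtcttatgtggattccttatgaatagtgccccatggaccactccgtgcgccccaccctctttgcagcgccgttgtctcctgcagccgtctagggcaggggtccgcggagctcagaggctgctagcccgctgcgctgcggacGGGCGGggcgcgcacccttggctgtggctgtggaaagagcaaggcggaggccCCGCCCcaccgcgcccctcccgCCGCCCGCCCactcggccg

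The GC box GGGCGG occurred 4 times in Col8a1, 4 times in Col8a2 (with 2 of these overlapping), 2 times in Col11a1 and 1 time in Col23a1. The CCAAT box occurred 1 time, in Col11a1, and TATAAA in none of the 4 windows. Of the 42 collagens, 33 had a RefSeq promoter entry, in 36 windows. The GC box was in 58.3% of these windows and in 32.7% of the 32851 windows of all genes. CCAAT was in 36.1% against 33.8%, and TATAAA in 13.9% against 12.4%. A match is a description of the letters only. Among the 42 collagens, 7 pairs lie next to each other in the genome: Col4a1 with Col4a2, Col4a3 with Col4a4, Col4a5 with Col4a6, Col6a1 with Col6a2, Col6a4 with Col6a5, Col3a1 with Col5a2, and Col9a1 with Col19a1.

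All values below are log2 expression as the authors deposited it. In each array the lower quartile of all 45037 probe sets other than controls lay at 3.93 to 4.10, which is near background. The median lay at 5.19 to 5.32 and the upper quartile at 7.13 to 7.48. These quartiles take in the dimmer probe sets that do not stand for a gene here. A probe set's level depends on its own probes, so levels are compared between groups and not between genes. The 7 fibroblast markers (Pdgfra, Pdgfrb, Dcn, Lum, Dpt, Thy1 and Fbln1) averaged 10.00 to 13.14 in every array, and none was near background in any group. Arrays of a group correlated with each other at 0.995 to 0.998 across genes for Cranial and Oral, at 0.972 to 0.974 for ENF, and at 0.984 to 0.988 for EPF. Dorsal 1 stood apart from its group, at 0.946 to 0.967, and so did Ventral 1, at 0.981 to 0.982 against 0.997 for the other pair. Xist, the transcript that coats an inactive X chromosome, was at 4.98 in ENF 1 and 5.20 in EPF 2, against 11.60 to 12.13 in the other ENF and EPF arrays. No arrays were identical.

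In all 18 arrays, 13 collagens lay above the array's upper quartile: 6 fibrillar chains (Col1a1, Col1a2, Col3a1, Col5a1, Col5a2 and Col5a3), Col4a1 and Col4a2, Col6a1, Col6a2 and Col6a3, Col16a1 and Col18a1. Besides the FACIT chain Col16a1 and the multiplexin Col18a1, these are the chains of collagen I, III and V, the common collagen IV network and the classical collagen VI filament. In all 18 arrays, 9 collagens lay below the median: Col9a2, Col10a1, Col11a2, Col19a1, Col24a1, Col4a6, Col6a4, Col6a5 and Col26a1. The 20 others lay between these classes or crossed them between arrays. Col3a1, the chain of collagen III, ran from 13.20 in Ventral 1 to 14.66 in ENF 3. Col1a1 ran from 12.91 in ENF 2 to 14.05 in EPF 2, and its partner chain Col1a2 from 13.68 in Oral 3 to 14.65 in EPF 1. The members whose arrays spread most were Col14a1, Col4a4, Col11a1, Col8a1, Col12a1 and Col17a1, as the map of deviations by array shows.

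**Figure D1:**
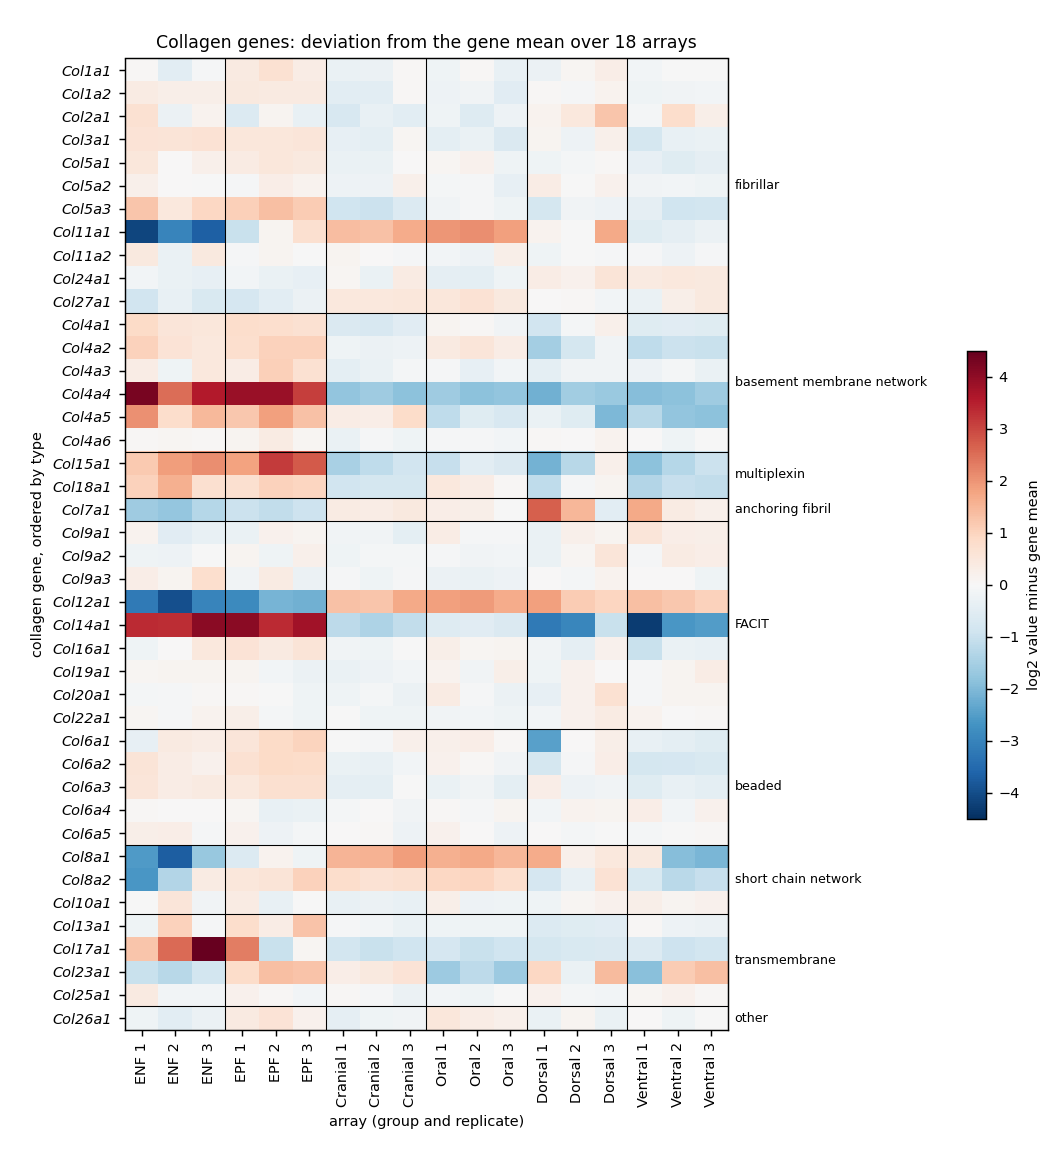
Each row is 1 of the 42 collagen genes, ordered by type, and each column 1 of the 18 arrays; colour is the log2 value minus that gene's mean over the 18 arrays. Strong colours are in Col17a1 (high in ENF 3), Col14a1 and Col4a4 (high in ENF and EPF), Col12a1 (low in ENF and EPF) and Col11a1 (low in the 3 ENF arrays), while the rows of Col1a1, Col1a2, Col3a1, Col5a1 and Col5a2 stay pale.

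The comparison of EPF with ENF asks which collagens differ between cells with and without En1 history in the same dorsal dermis. Col11a1, a chain of the minor fibrillar collagen XI, and Col23a1, a transmembrane collagen, were higher in EPF. The other 40 collagens did not pass the test. A collagen was called at an adjusted p under 0.05 in limma with Benjamini-Hochberg adjustment over all 18193 genes. By this rule 2 of 42 collagens were called, both higher in EPF, where 0.308% of all genes were called, 0.275% higher and 0.033% lower. The fitted difference was above 0 for 28 of the 42 collagens and for 9104 of all 18193 genes. Its median over the collagens was 0.17, against 0.00 over all genes. At an unadjusted p under 0.05 in limma were 11 collagens and 1967 of all genes.

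Col11a1 stood at 3.41, 4.55 and 3.84 in ENF (3.93 ± 0.58, mean ± SD, n = 3) and at 6.53, 7.66 and 8.25 in EPF (7.48 ± 0.88). All ENF arrays were lower than all EPF arrays, with ENF near background. The difference was 3.55 ± 0.46 (SE), or 11.7-fold, at an adjusted p of 0.0324 in limma. It is a lower bound because ENF was near background. The gene's other probe set differed by 2.93, at an adjusted p of 0.121 in limma over all probe sets. Its partner chain Col11a2 was near background in EPF and not called, at 4.13 ± 0.44 in ENF and 3.96 ± 0.09 in EPF (adjusted p = 0.838, limma).

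Col23a1 stood at 6.17, 5.93 and 6.37 in ENF (6.16 ± 0.22) and at 8.01, 8.53 and 8.48 in EPF (8.34 ± 0.29). The groups did not overlap, and the spread within each was small beside the gap. The difference was 2.18 ± 0.20, or 4.53-fold, at an adjusted p of 0.00811 in limma. The other probe sets of Col23a1 differed in the same direction, by 1.87 (adjusted p = 0.00858 over all probe sets, limma) and by 1.49 (adjusted p = 0.109). Both calls rest on few arrays. Without ENF 1 the count of called collagens was 1, without EPF 2 it was 0, without EPF 3 it was 0, and without ENF 1 and EPF 2 together it was 0. Here and below, counts with 1 array left out are given without the all-gene count. They show how far a count rests on single arrays, and are not a result about collagens in particular. Across 14 alternatives the difference of Col11a1 ranged from 3.16 to 4.02 and that of Col23a1 from 1.85 to 2.35 on the log2 scale. Without ENF 3, Col11a1 was at an adjusted p of 0.0535 in limma.

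Both chains of collagen VIII had large differences that did not pass the test. Col8a1 stood at 6.87, 5.72 and 7.71 in ENF (6.77 ± 1.00) and at 8.80, 9.57 and 9.24 in EPF (9.20 ± 0.38). The arrays did not overlap, and the ENF arrays were spread over a wider range than the EPF arrays. The difference was 2.43 ± 0.47 at an adjusted p of 0.103 in limma. Col8a2 stood at 3.20, 4.49 and 6.18 in ENF (4.63 ± 1.5) and at 6.33, 6.38 and 6.84 in EPF (6.52 ± 0.28). ENF 3 came close to the EPF arrays, while ENF 1 was below the lower quartile. The difference was 1.89 ± 0.65 at an adjusted p of 0.345 in limma. Col10a1, the third short chain collagen and a marker of hypertrophic cartilage, differed by -0.12 and was low in every array.

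The fibrillar chains that were high in every array had small differences between EPF and ENF. Col1a1 had the largest difference among them, at 0.63 ± 0.19 (adjusted p = 0.302, limma), with the 3 EPF arrays between 13.70 and 14.05 and the 3 ENF arrays between 12.91 and 13.44. Col1a2 differed by 0.12, Col3a1 by -0.11, Col5a1 by 0.18, Col5a2 by 0.06 and Col5a3 by 0.30. None of them passed the test. Of the 11 fibrillar chains, 7 had a difference above 0 and 1 was called.

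The basement membrane network chains were 6 of 6 above 0 in the fit, where 9104 of all 18193 genes were above 0. Of the 6, 0 were called, with 0 at an unadjusted p under 0.05. Their differences ran from 0.03 for Col4a5 to 0.51 for Col4a3, with a median of 0.16. The beaded filament chains had no call. Col6a1, which together with Col6a2 and Col6a3 builds the collagen VI monomer, stood at 12.22, 13.01 and 12.94 in ENF and at 13.14, 13.44 and 13.60 in EPF. The EPF arrays were all above the ENF arrays, but by less than the spread within ENF. The difference was 0.67 ± 0.25 at an adjusted p of 0.381 in limma. Col6a2 stood at 13.50, 13.25 and 13.13 in ENF and at 13.61, 13.80 and 13.75 in EPF, a difference of 0.43 ± 0.16 (adjusted p = 0.394, limma). Col6a3 differed by 0.21. The anchoring fibril chain Col7a1 stood at 6.09, 5.93 and 6.40 in ENF and at 6.71, 6.58 and 6.75 in EPF. These ranges did not overlap, and the difference of 0.54 ± 0.17 had an adjusted p of 0.308 in limma.

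Among the FACIT chains, Col12a1 had the largest difference, at 1.01 ± 0.32 (adjusted p = 0.303, limma), and 0 of 9 were called, with 1 at an unadjusted p under 0.05. Of the transmembrane chains only Col23a1 was called. Col17a1, a component of the hemidesmosome of basal keratinocytes that was chosen here after its values were seen, had the most negative difference of the 42, at -2.35 ± 1.00 (adjusted p = 0.456, limma). It stood at 5.88, 7.18 and 9.25 in ENF, at 6.92, 3.63 and 4.72 in EPF, and at 3.62 to 4.02 in the 12 arrays of the other groups. ENF 3 was highest, EPF 1 overlapped the ENF arrays, and the other groups were near background. The 8 keratinocyte markers (Krt5, Krt14, Krt15, Trp63, Cdh1, Perp, Dsp and Lama3) averaged 7.72 to 9.95 in ENF, 4.25 to 8.16 in EPF and 4.23 to 4.72 in the other groups. In EPF 0 of the 8 were called higher and 1 was called lower (Trp63). The difference of Lama3 was -0.01 ± 0.20. No group mean of these markers was near background in ENF or EPF, but single arrays were. Krt15, Cdh1, Perp and Dsp stood at 3.91, 3.38, 3.94 and 3.38 in EPF 2. In EPF 1 they stood at 10.68, 5.86, 11.78 and 11.17, and in EPF 3 at 7.91, 3.56, 8.55 and 8.13. Krt5, Krt14, Trp63 and Lama3 stood at 6.14, 4.48, 4.42 and 4.31 in EPF 2. The part of the keratinocyte markers in the Col17a1 values was not tested.

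**Figure D2:**
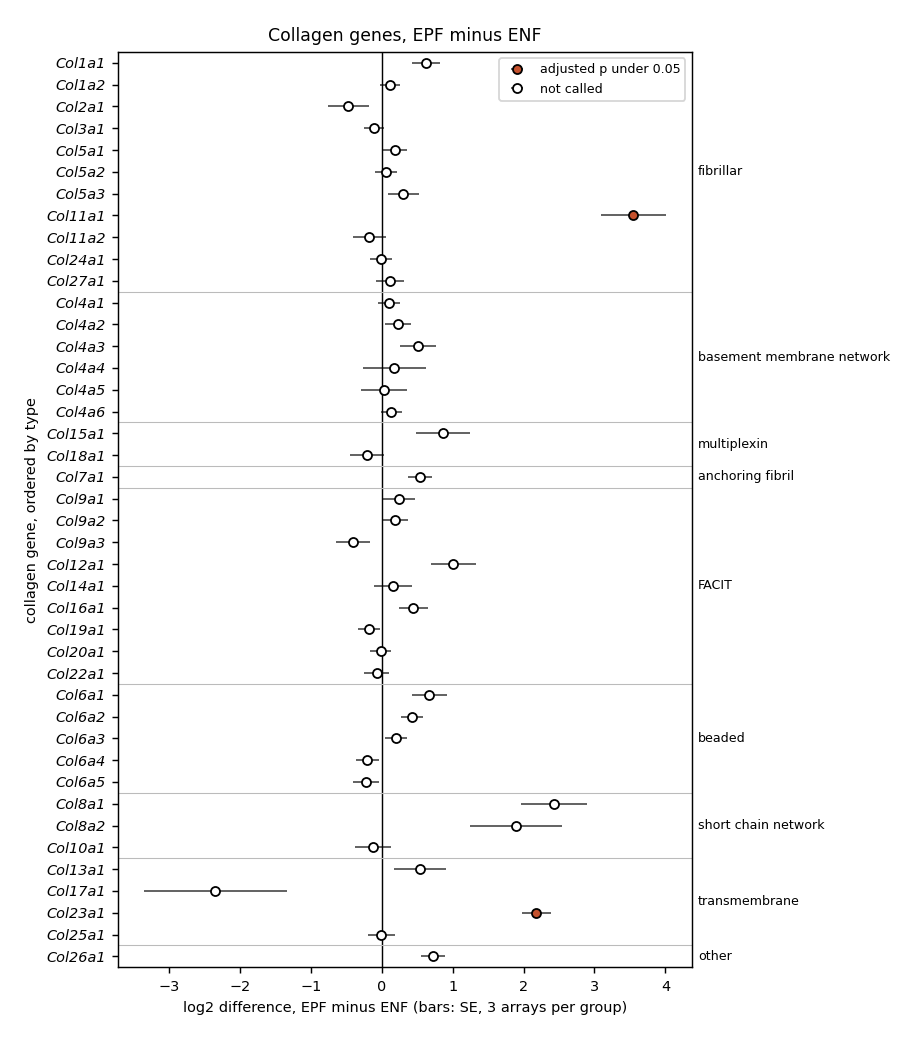
Points are the limma difference EPF minus ENF on the log2 scale for each of the 42 collagens, ordered by type; bars are ±1 SE from 3 arrays per group, and filled points passed an adjusted p under 0.05. The filled points are Col11a1 at 3.55 and Col23a1 at 2.18, with Col8a1 and Col8a2 open at 2.43 and 1.89 and Col17a1 open at -2.35.

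Markers of several other cell types also differed between EPF and ENF. The 7 mural and smooth muscle markers were higher in EPF in 7 of 7 cases, and 4 were called (Acta2, Myh11, Actg2 and Cnn1), with list means of 6.95 to 7.04 in ENF and 8.78 to 8.90 in EPF. Of the 5 tendon markers 4 were higher and 3 called (Tnmd, Mkx and Thbs4), with list means of 6.33 to 6.60 in ENF and 7.64 to 8.17 in EPF. The 5 dermal papilla markers averaged 4.12 to 5.19 in ENF and 6.28 to 7.35 in EPF, with 0 called. The 5 skeletal muscle markers averaged 6.07 to 7.05 in ENF and 4.71 to 5.03 in EPF, with 2 called lower (Myf5 and Acta1). The part of these cell types in the collagen values was not tested. Fewer cells of a type and less RNA per cell cannot be told apart in these bulk arrays.

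The comparison of the 4 sites asks which collagens differ among green cells of Cranial, Oral, Dorsal and Ventral origin. The chains called were Col11a1, Col2a1 and Col24a1 among the fibrillar chains, Col4a2 and Col4a5, both chains of collagen VIII, Col14a1, Col18a1 and Col26a1. Collagen I, III, V and VI chains were not called. The limma F test over the 12 arrays called 10 of 42 collagens, where 21.1% of all genes were called. The collagens' share was close to that of all genes. The median distance between the highest and lowest site mean was 0.54 over the collagens and 0.41 over all genes. By type, the F test called 2 of 3 short chain network, 3 of 11 fibrillar, 2 of 6 basement membrane network, 1 of 9 FACIT and 1 of 2 multiplexin chains, besides Col26a1. It called 0 of 5 beaded chains (1 at an unadjusted p under 0.05), 0 of 4 transmembrane chains (2 at that level) and not Col7a1. Of all genes, 6358 were at that level.

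The 12 arrays share 1 estimate of spread. Without Dorsal 1 the F test called 19 collagens, and the all-gene count for that setting is not given here. Without Dorsal 1 and Ventral 1 together, an alternative added after the data were seen, it called 20. The all-gene count rose as well, to 7433 of 18193 without both arrays, from 3836 with all arrays. Without Cranial 3, Oral 1 or Oral 2 it called 6 in each case. Col11a1, Col4a2 and Col8a2 kept their call in 21 of 21 alternatives.

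The Wnt1Cre sites (Cranial and Oral) were then set against the En1Cre sites (Dorsal and Ventral). Col8a1, Col8a2, Col11a1, Col14a1, Col4a2 and Col4a5 were higher at the Wnt1Cre sites, and Col2a1 was lower. Cre line and body region cannot be told apart in this contrast. The limma test called 10 of 42 collagens, 7 higher and 3 lower at the Wnt1Cre sites, where 32.1% of all genes were called (18.1% higher and 13.9% lower). Without Dorsal 1 it called 17, and without Dorsal 1 and Ventral 1 together 19. The all-gene count was 8835 without both arrays, against 5831 with all arrays. The median difference was 0.00 over the collagens and -0.05 over all genes. The 7 called higher were Col11a1, Col8a1, Col8a2, Col14a1, Col4a2, Col4a5 and Col27a1, and the 3 called lower were Col2a1, Col24a1 and Col22a1.

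Col11a1 stood at 8.92, 8.86 and 9.20 in Cranial (8.99 ± 0.18), at 9.50, 9.61 and 9.38 in Oral (9.50 ± 0.12), at 7.69, 7.53 and 9.23 in Dorsal (8.15 ± 0.94) and at 6.99, 7.13 and 7.28 in Ventral (7.13 ± 0.14). Oral was highest and Ventral lowest without overlap, while Dorsal 3 lay just above the Cranial arrays. The site means spanned 2.36 (F adjusted p = 0.00310, limma), and the Wnt1Cre sites were higher by 1.60 ± 0.25 (adjusted p = 0.000771, limma). The other Col11a1 probe set gave a larger difference, 4.03 at an adjusted p of 1.2e-05 in limma over all probe sets. Col11a2, its partner, lay between 3.71 and 4.19 in the 12 arrays and differed by 0.10 ± 0.09 (adjusted p = 0.460, limma).

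Col2a1 is the chain of the cartilage fibril. It stood at 4.94, 5.33 and 5.19 in Cranial, at 5.46, 5.10 and 5.44 in Oral, at 5.83, 6.13 and 6.90 in Dorsal and at 5.57, 6.46 and 5.93 in Ventral. Every Wnt1Cre array was lower than every En1Cre array, with values around the array median. The Wnt1Cre sites were lower, by -0.89 ± 0.20 (adjusted p = 0.00618, limma), and the F test gave an adjusted p of 0.0335. The F call of Col2a1 was kept in 13 of 21 alternatives. The 7 cartilage markers averaged 4.47 to 4.91 in the 12 arrays. The F test over the sites called 2 of them, and they went opposite ways. Acan, the cartilage proteoglycan, was higher at Cranial (7.13 ± 0.07) and Oral (6.98 ± 0.17) than at Dorsal (5.25 ± 0.18) and Ventral (5.28 ± 0.35). Snorc had lower means at Cranial (4.78 ± 0.26) and Oral (4.68 ± 0.07) than at Dorsal (5.31 ± 0.29) and Ventral (5.12 ± 0.11), with an adjusted p of 0.0448 in the limma F test. Matn1 and Hapln1 were near background at all sites, and the part of cartilage cells was not tested.

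Col24a1, a fibrillar chain known from developing bone and cornea, stood at 3.32, 2.94 and 3.59 in Cranial, at 2.85, 2.81 and 3.04 in Oral, at 3.58, 3.44 and 3.81 in Dorsal and at 3.65, 3.71 and 3.67 in Ventral. Oral was lowest, and every value was below the lower quartile, so the sizes are uncertain. The difference was -0.55 ± 0.11 (adjusted p = 0.00409, limma; F adjusted p = 0.0156). Col27a1 was called higher by 0.46 ± 0.12 (adjusted p = 0.0126, limma), but its other probe set was lower by -0.60 (adjusted p = 0.00354 over all probe sets). Its direction is therefore unsettled, and with the mean of both probe sets the difference was -0.07. The other fibrillar chains differed by -0.25 (Col1a2) to 0.18 (Col5a1) and were not called. Col1a1 lay between 13.06 and 13.67 in the 12 arrays, with site means of 13.22 ± 0.20, 13.23 ± 0.20, 13.42 ± 0.27 and 13.34 ± 0.07 in Cranial, Oral, Dorsal and Ventral.

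Both chains of collagen VIII were higher at the Wnt1Cre sites. Col8a1 stood at 10.94, 10.97 and 11.30 in Cranial (11.07 ± 0.20), at 11.03, 11.11 and 10.91 in Oral (11.02 ± 0.10), at 11.09, 9.64 and 9.90 in Dorsal (10.21 ± 0.78) and at 9.86, 7.49 and 7.36 in Ventral (8.24 ± 1.41). Dorsal 1 lay among the Wnt1Cre arrays, and Ventral 1 lay more than 2 log2 units above the other Ventral arrays. The difference of the Wnt1Cre sites was 1.82 ± 0.41, or 3.53-fold, at an adjusted p of 0.00639 in limma (F adjusted p = 0.0130). Its other probe sets differed by 1.28 and 0.73, at adjusted p of 0.0189 and 0.0165 in limma over all probe sets.

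Col8a2 stood at 6.60, 6.44 and 6.53 in Cranial (6.53 ± 0.08), at 6.73, 6.76 and 6.57 in Oral (6.69 ± 0.10), at 5.03, 5.46 and 6.46 in Dorsal (5.65 ± 0.74) and at 5.11, 4.58 and 4.77 in Ventral (4.82 ± 0.27). Dorsal 3 reached the level of Cranial, and the other En1Cre arrays were all lower. The difference was 1.37 ± 0.20, or 2.59-fold, at an adjusted p of 0.000611 in limma, and the F test gave 0.00290. The En1Cre arrays that were high differed between the chains: Dorsal 1 for Col8a1 and Dorsal 3 for Col8a2.

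In the collagen IV network, Col4a2 and Col4a5 were higher at the Wnt1Cre sites. Col4a2 stood at 10.97, 10.90 and 10.92 in Cranial (10.93 ± 0.04), at 11.56, 11.68 and 11.49 in Oral (11.58 ± 0.10), at 9.61, 10.37 and 10.99 in Dorsal (10.32 ± 0.69) and at 10.02, 10.18 and 10.15 in Ventral (10.12 ± 0.08). Oral was above all other arrays, and Dorsal 3 reached Cranial. The difference was 1.03 ± 0.18 (adjusted p = 0.00182, limma), and the F test gave an adjusted p of 0.00776. Col4a1 pairs with Col4a2 in the common network, and the genes lie side by side. Its values were 11.87, 11.79 and 12 in Cranial, 12.63, 12.57 and 12.37 in Oral, 11.66, 12.44 and 12.74 in Dorsal, and 11.98, 12 and 11.96 in Ventral. Here Dorsal reached Oral, and Cranial was as low as Ventral. The difference of Col4a1 was 0.07 ± 0.16 (adjusted p = 0.737, limma) with the brighter probe set and 0.97 (adjusted p = 0.0290 over all probe sets) with the other, so the 2 probe sets of Col4a1 disagree.

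Col4a5, a chain of the minor collagen IV networks, stood at 8.86, 8.85 and 9.36 in Cranial (9.02 ± 0.29), at 7.39, 8.0 and 7.83 in Oral (7.74 ± 0.31), at 8.23, 8.0 and 6.51 in Dorsal (7.58 ± 0.94) and at 7.28, 6.77 and 6.69 in Ventral (6.91 ± 0.32). Cranial was above all other sites, and Oral overlapped Dorsal. The difference between the lines was 1.13 ± 0.27 (adjusted p = 0.00962, limma; F adjusted p = 0.0139), and its other probe set gave 0.70 (adjusted p = 0.000401 over all probe sets). Col4a6, which neighbours Col4a5, lay between 4.20 and 4.65 in the 12 arrays and was not called (F adjusted p = 0.311, limma). Col4a3 and Col4a4 differed by 0.00 and 0.06 between the lines.

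Among the chains that sit on fibrils, Col14a1 differed most. It stood at 7.80, 7.59 and 7.87 in Cranial (7.75 ± 0.14), at 8.41, 8.46 and 8.31 in Oral (8.40 ± 0.07), at 5.78, 6.04 and 7.96 in Dorsal (6.59 ± 1.19) and at 4.70, 6.35 and 6.47 in Ventral (5.84 ± 0.99). Dorsal 3 lay above the Cranial arrays, the other En1Cre arrays were lower, and Ventral 1 was lowest. The difference was 1.86 ± 0.39, or 3.62-fold, at an adjusted p of 0.00467 in limma, and the F test gave 0.0225. The F call was kept in 15 of 21 alternatives. Of its other probe sets, 1 differed by 1.06 (adjusted p = 0.0117 over all probe sets, limma), and 1 by -0.24 (adjusted p = 0.0865). Col22a1, known from tissue junctions, was called lower by -0.26 ± 0.09 (adjusted p = 0.0464, limma), a call kept in 5 of 20 alternatives. Col12a1 differed by 0.37 and Col16a1 by 0.34 without passing the test.

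Col18a1, the multiplexin of basement membranes and source of endostatin, stood at 8.0, 8.06 and 8.08 in Cranial (8.05 ± 0.04), at 9.34, 9.20 and 8.90 in Oral (9.15 ± 0.22), at 7.72, 8.81 and 8.99 in Dorsal (8.51 ± 0.69) and at 7.54, 7.83 and 7.74 in Ventral (7.70 ± 0.15). It was high in Oral and low in Cranial and Ventral, with Dorsal spread across both. The site means spanned 1.45 (F adjusted p = 0.0129, limma), and the difference between the lines was 0.49 ± 0.19 (adjusted p = 0.0712). Col26a1 stood at 3.73, 3.96 and 4.0 in Cranial, at 4.66, 4.49 and 4.36 in Oral, at 3.83, 4.26 and 3.85 in Dorsal and at 4.17, 3.96 and 4.14 in Ventral. Oral alone was above the rest, at levels near background elsewhere (F adjusted p = 0.0353, limma). The call was kept in 9 of 20 alternatives.

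Col23a1, called between EPF and ENF, was not called among the sites (F adjusted p = 0.137, limma). It stood at 7.49, 7.63 and 7.80 in Cranial (7.64 ± 0.16), at 5.56, 6.02 and 5.55 in Oral (5.71 ± 0.27), at 8.10, 6.90 and 8.61 in Dorsal (7.87 ± 0.88) and at 5.29, 8.34 and 8.55 in Ventral (7.39 ± 1.83). The 3 Oral arrays and Ventral 1 were low, and the other 8 arrays were at 6.90 or above. Col6a2, the beaded chain with the largest F statistic, lay between 12.12 and 13.23 (F adjusted p = 0.116, limma). Its neighbour Col6a1 stood at 10.14 in Dorsal 1 and between 12.03 and 12.88 in the other 11 arrays (F adjusted p = 0.506). Col7a1 stood at 10.39, 9.17 and 7.20 in Dorsal, at 9.40, 8.04 and 7.90 in Ventral, and between 7.67 and 8.12 in Cranial and Oral. Dorsal alone spanned the whole range of the other sites (F adjusted p = 0.565, limma).

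**Figure D3:**
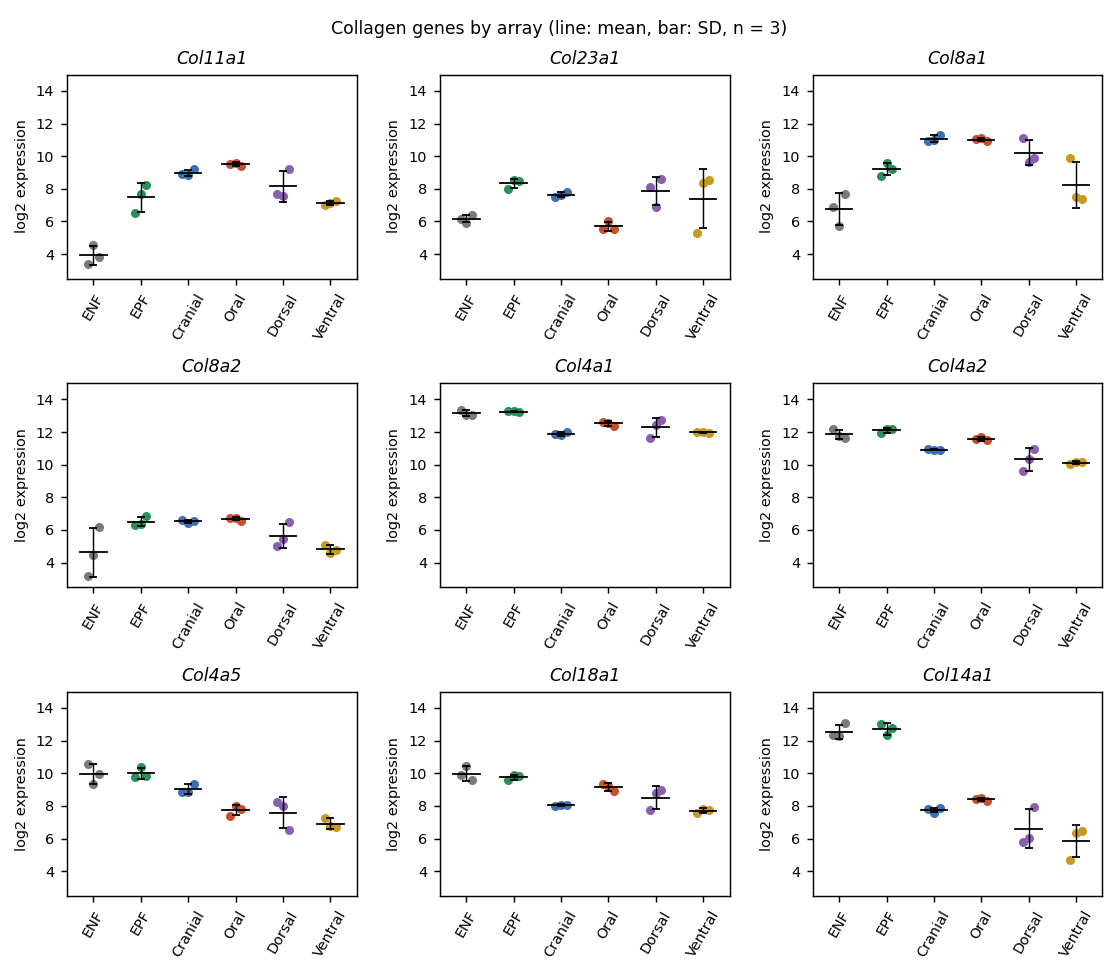
Points are the log2 values of single arrays for 9 collagens in the 6 groups; lines are means and bars SD of 3 arrays, on the same axis range in every panel. Col11a1 lies at 3.41 to 4.55 in ENF and at 9.38 to 9.61 in Oral. Some wide bars in Dorsal and Ventral come from single arrays, such as Ventral 1 in Col23a1 (5.29) and Col8a1 (9.86). Others do not, such as that of Col4a2 in Dorsal (9.61, 10.37 and 10.99).

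**Figure D4:**
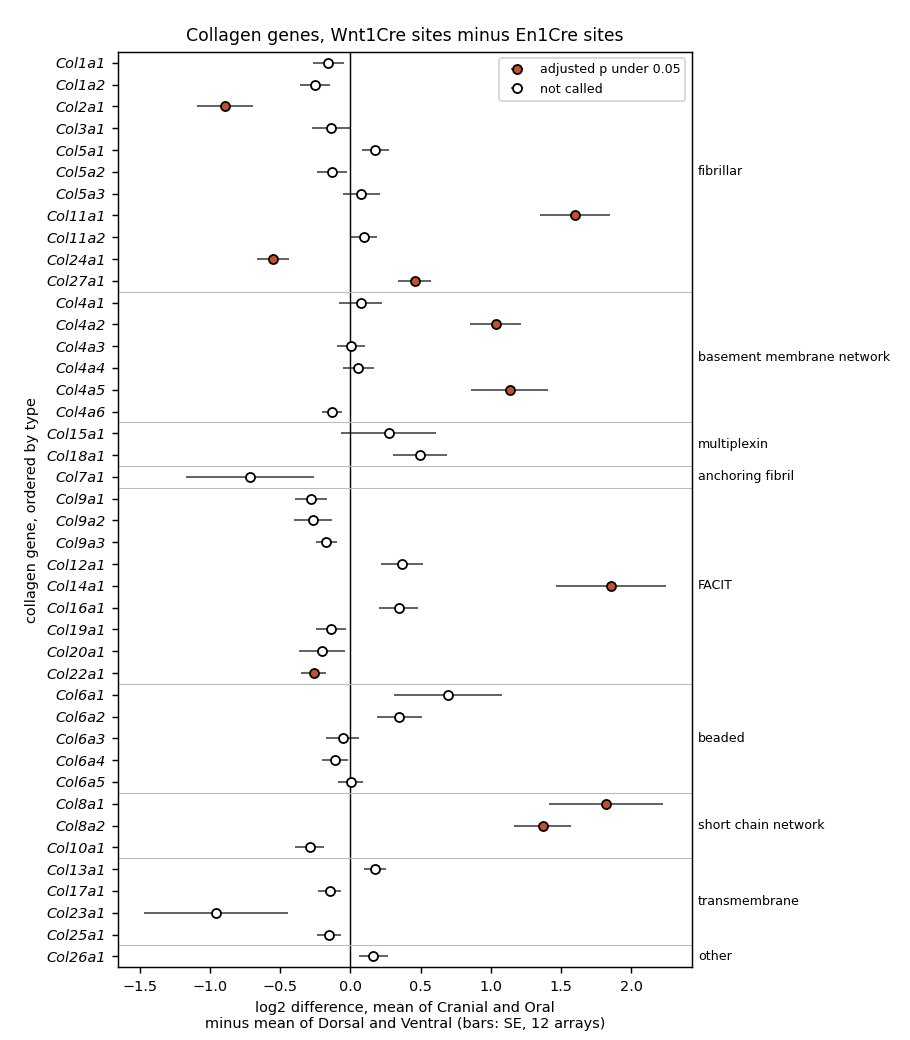
Points are the limma difference of the mean of Cranial and Oral minus the mean of Dorsal and Ventral, on the log2 scale, for each of the 42 collagens; bars are ±1 SE from the fit on 12 arrays, and filled points passed an adjusted p under 0.05. Filled points to the right include Col14a1 at 1.86, Col8a1 at 1.82 and Col11a1 at 1.60; Col2a1 lies to the left at -0.89.

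Within each Cre line, no collagen passed the test. Between Oral and Cranial limma called 0 of 42 collagens, where 1.14% of all genes were called (0.407% higher and 0.731% lower in Oral). At an unadjusted p under 0.05 were 8 collagens and 1507 of all 18193 genes. The smallest adjusted p was 0.0863, for Col26a1, at 0.61 ± 0.14. Col18a1 was higher in Oral by 1.10 ± 0.27 (adjusted p = 0.102), Col4a1 by 0.64 ± 0.22 (adjusted p = 0.343) and Col4a2 by 0.64 ± 0.26 (adjusted p = 0.493). Col23a1 was lower in Oral by -1.93 ± 0.72 (adjusted p = 0.428), and Col4a5 by -1.28 ± 0.39 (adjusted p = 0.238). Col5a3 was higher in Oral by 0.695 ± 0.187 (adjusted p = 0.1535, limma). For each of these chains the Oral and Cranial arrays did not overlap, but this also held for other collagens, such as Col11a1 and Col16a1. How many of all genes had no overlap was not counted. With the spread taken from the Cranial and Oral arrays alone, 9 collagens and 1795 of all genes were called. Without Dorsal 1 the collagen count was 5, without Dorsal 3 it was 2, and without Dorsal 2 or Ventral 1 it was 1 in each case. Without Dorsal 1 and Ventral 1 together it was 7, with 772 of all genes called. With all arrays 207 of all genes were called.

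Between Ventral and Dorsal limma called 0 of 42 collagens, where 0.0275% of all genes were called (0.0055% higher and 0.022% lower in Ventral). At an unadjusted p under 0.05 were 9 collagens and 1555 of all 18193 genes. The smallest adjusted p of a collagen was 0.447 in limma. The median difference was -0.12 over the collagens and -0.02 over all genes. The difference of Col8a1 was the largest of the 42, at -1.97 ± 0.57 (adjusted p = 0.477, limma), followed by Col11a1 at -1.02 ± 0.35, Col8a2 at -0.83 ± 0.29 and Col18a1 at -0.81 ± 0.27 (adjusted p = 0.515 for each of the latter, limma). Without Dorsal 1 the count was 2, without Ventral 1 it was 1, and without both together it was 5. Without both, 177 of all genes were called, against 5 with all arrays. With the spread of the Dorsal and Ventral arrays alone the collagen count stayed 0.

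Across the Cre lines, single sites were also compared, and these comparisons share their arrays. Between Oral and Dorsal 9 of 42 collagens were called, 7 higher and 2 lower in Oral, where 16.8% of all genes were called (10.5% higher and 6.3% lower). They were Col11a1, Col13a1, Col14a1, Col26a1, Col27a1, Col4a2 and Col8a2, and, lower, Col2a1 and Col24a1. Between Oral and Ventral 10 were called, 9 higher and 1 lower in Oral, where 14.6% of all genes were called (10.3% higher and 4.31% lower). The 9 were Col11a1, Col14a1, Col16a1, Col18a1, Col4a2, Col5a1, Col6a2, Col8a1 and Col8a2, and the 1 lower was Col24a1. Between Cranial and Dorsal 3 were called, Col4a5 and Col13a1 higher and Col2a1 lower in Cranial, where 18.7% of all genes were called (11.2% higher and 7.45% lower). Between Cranial and Ventral 7 were called, where 17.9% of all genes were called (11.7% higher and 6.2% lower). Col11a1, Col14a1, Col4a5, Col8a1 and Col8a2 were higher in Cranial, and Col9a1 and Col10a1 lower. These counts ranged widely when single arrays were left out: 1 to 10 for Oral and Dorsal, 7 to 15 for Oral and Ventral, 0 to 11 for Cranial and Dorsal and 4 to 11 for Cranial and Ventral.

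Markers moved among the sites as well. Of the 5 tendon markers the F test called 4, with list means of 6.52 to 6.67 in Cranial, 6.90 to 7.03 in Oral, 5.65 to 6.42 in Dorsal and 5.10 to 5.67 in Ventral. The 3 measured adipocyte markers averaged 6.05 to 6.31 in Cranial, 6.03 to 6.08 in Oral, 7.06 to 9.39 in Dorsal and 6.74 to 8.13 in Ventral, and 2 were called. The fibroblast markers averaged 11.51 to 11.80 in Cranial, 10.52 to 10.73 in Oral, 11.02 to 12.08 in Dorsal and 10.00 to 11.45 in Ventral. Of these 7 the F test called 1 (Dcn), where 21.1% of all genes were called. It also called 2 of 8 keratinocyte, 2 of 6 endothelial and 2 of 4 melanocyte markers. The part of all these markers in the collagen differences was not tested.

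EPF and Dorsal carry the same labels for line, tissue and gate, and differ in the label for age (day 56 against day 30). The differences of Col14a1 and Col4a4 here were larger than any collagen difference in the other comparisons made, and they separate ENF and EPF together from all 4 sites. Age, the mix of cells and any difference in how the 2 sets of arrays were made cannot be told apart. The fibroblast markers averaged 13.09 to 13.14 in EPF and 11.02 to 12.08 in Dorsal. Mural and smooth muscle markers averaged 8.78 to 8.90 and 7.37 to 8.06, and tendon markers 7.64 to 8.17 and 5.65 to 6.42. Adipocyte markers leaned the other way, at 6.56 to 7.18 in EPF and 7.06 to 9.39 in Dorsal. The part of these cell types in the collagen differences was not tested. The limma test on the 6 arrays called 10 of 42 collagens, 8 higher and 2 lower in EPF, where 16.8% of all genes were called (10.9% higher and 5.94% lower). The count was 6 without EPF 1 and 5 without EPF 2 or without EPF 3. The median difference was 0.40 over the collagens and 0.01 over all genes. The chains named in the next paragraph were chosen after their values were seen. The EPF arrays serve in this comparison and in that with ENF, and the Dorsal arrays in this and in the site comparisons.

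Col14a1 lay at 13.04, 12.34 and 12.75 in EPF and at 5.78, 6.04 and 7.96 in Dorsal. The ENF arrays were as high as EPF, at 12.29 to 13.05, and no site array exceeded 8.46. The difference was 6.11 ± 0.57, or 69.2-fold, at an adjusted p of 0.00112 in limma. Across 13 alternatives it ranged from 4.60 to 6.80. Col4a4, a chain of the minor collagen IV network, lay at 9.76, 9.78 and 8.98 in EPF and at 3.73, 4.30 and 4.21 in Dorsal. All 12 site arrays were between 3.73 and 4.30, below the array median, and the ENF arrays between 8.38 and 10.17. The Dorsal mean of 4.08 was near background. The difference was 5.43 ± 0.28, or 43.1-fold, at an adjusted p of 0.000140 in limma, and it is a lower bound for this probe set. Across 13 alternatives it ranged from 4.12 to 5.70. Col14a1 and Col4a4 have 3 probe sets each, and only the brightest is given here. Col12a1 went the other way, at 6.73, 7.52 and 7.45 in EPF and at 11.43, 10.74 and 10.55 in Dorsal. Its ENF arrays lay at 5.63 to 6.63, and all site arrays were at 10.55 or above. The difference was -3.68 ± 0.31 (adjusted p = 0.000800, limma). Its second brightest probe set fell by 2.05 (adjusted p = 0.000567 over all probe sets), while the 2 dim probe sets, with means of 3.95 and 4.14, differed by 0.00 and 0.13.

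The other chains called higher in EPF than in Dorsal were Col15a1 by 3.63 ± 0.63 (adjusted p = 0.0114, limma), Col4a5 by 2.41, Col4a2 by 1.77, Col5a3 by 1.60, Col13a1 by 1.35 and Col4a3 by 0.96. Col24a1 was called lower by -0.64 near background. By type, 4 of 6 basement membrane network chains were called, all higher. Col1a1, Col1a2 and Col3a1 differed by 0.43, 0.36 and 0.48 and were not called.

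**Figure D5:**
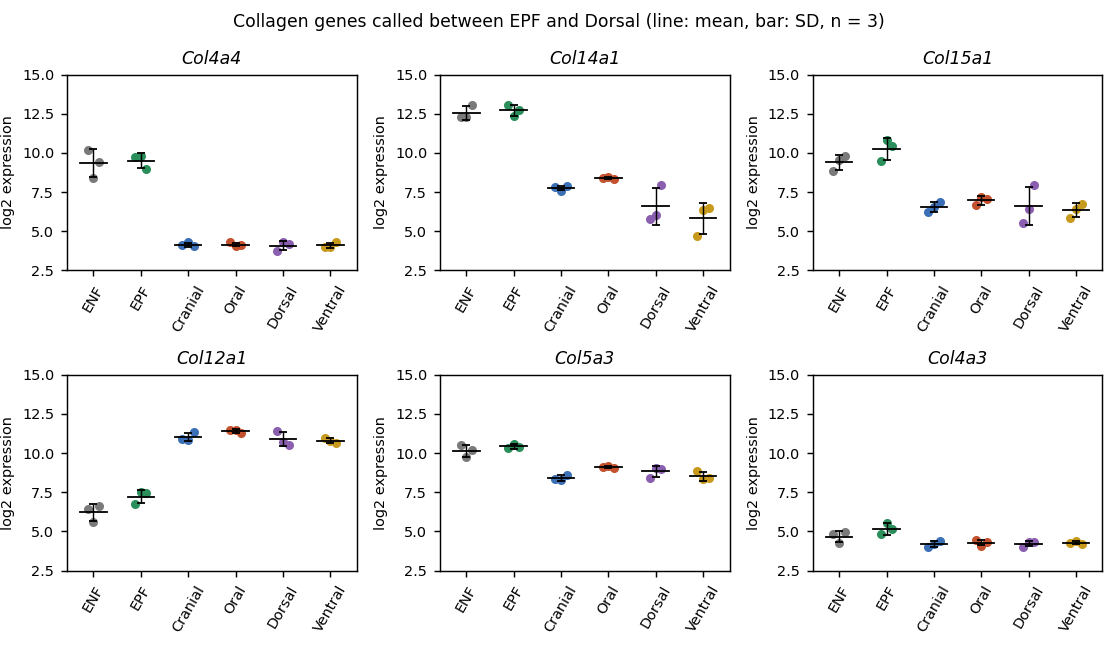
Points are the log2 values of single arrays for 6 collagens called between EPF and Dorsal, in all 6 groups; lines are means and bars SD of 3 arrays. ENF and EPF lie together and apart from the 4 sites: Col4a4 at 8.38 to 10.17 against 3.73 to 4.30, and Col12a1 at 5.63 to 7.52 against 10.55 to 11.50.

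The genes that modify, fold, carry, trim, crosslink and bind collagen were taken from a list of 45, of which 40 were measured. Between EPF and ENF limma called 0 of 40 (0.308% of all genes), with 8 at an unadjusted p under 0.05 (1967 of all genes). The smallest adjusted p was 0.119 in limma, for Creb3l1, a transcription factor of collagen-secreting cells (0.86 ± 0.17). With all 18 arrays in 1 fit 1 of the 40 was called, the crosslinking enzyme Lox, and 460 of all genes. The fitted difference on the 6 arrays was above 0 for 33 of 40 (9104 of all 18193 genes), with a median of 0.28. Lox stood at 11.07, 10.96 and 10.53 in ENF and at 11.45, 12.42 and 11.80 in EPF, without overlap (1.04 ± 0.27, adjusted p = 0.212, limma). Plod1, a lysyl hydroxylase, stood at 9.05, 8.31 and 8.48 in ENF and at 9.23, 9.99 and 9.38 in EPF (0.92 ± 0.27, adjusted p = 0.270).

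Among the 4 sites the limma F test called 13 of these 40 genes (21.1% of all genes). The 13 were P3h2, Colgalt1, Fkbp7, Sec23a, Sec24d, Adamts3, Lox, Loxl1, Loxl4, Ddr1, Ddr2, Itga1 and Itgb1. The count was 6 without Oral 3, 7 without Oral 2 and 8 without Cranial 1, Cranial 2 or Cranial 3. With the mean of all probe sets of a gene it was 6, where 3449 of all genes were called. Values here are from the brightest probe set, and other probe sets of processing genes were not compared singly. P3h2, a prolyl 3-hydroxylase known to act on collagen IV, stood at 7.15, 7.08 and 7.03 in Oral and between 5.10 and 5.92 in the other 9 arrays. Oral alone was high, and the site means spanned 1.82 (F adjusted p = 2.901e-05, limma). It was also the 1 gene of the 40 called between Oral and Cranial, at 1.37 ± 0.14 (adjusted p = 0.000482). Sec24d, a coat protein of the vesicles that carry procollagen, stood at 11.55 to 11.95 in the 6 Wnt1Cre arrays and at 10.17 to 11.05 in the 6 En1Cre arrays. The ranges did not overlap, and the difference was 1.17 ± 0.16 (adjusted p = 0.000410, limma). Its coat partner Sec23a was higher by 0.90 ± 0.20 (adjusted p = 0.00595).

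Between the Wnt1Cre and En1Cre sites 14 of 40 genes were called, 10 higher and 4 lower (32.1% of all genes). Lox, at 12.76, 12.73 and 13.08 in Cranial, 12.21, 12.35 and 12.15 in Oral, 11.72 to 12.25 in Dorsal and 11.81 to 12.06 in Ventral, was higher by 0.58 ± 0.11 (adjusted p = 0.00229, limma). Plod1 was higher by 1.16 ± 0.28 (adjusted p = 0.00887). By the brightest probe set of each, the collagen receptors went both ways. Itgb1, the beta chain of the collagen-binding integrins, was lower by -1.19 ± 0.23 (adjusted p = 0.00291), at 8.46 to 8.95 in the Wnt1Cre arrays and 9.30 to 10.83 in the En1Cre arrays. The receptor kinase Ddr1 was lower by -0.74 ± 0.16 (adjusted p = 0.00468), and Ddr2 was higher by 0.68 ± 0.11 (adjusted p = 0.00115). Pcolce2, an enhancer of procollagen trimming, was lower by -1.64 ± 0.49 (adjusted p = 0.0275), with Ventral 1 at 11.20 and the other 11 site arrays between 6.55 and 8.94. It stood at 13.03 to 13.38 in ENF and EPF. Loxl4 was lower by -0.67 ± 0.09 (adjusted p = 0.000387). Serpinh1, the collagen chaperone HSP47, was not called in these comparisons, with site means from 12.45 ± 0.72 in Dorsal to 13.08 ± 0.16 in Oral.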

How the data were processed

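Expression was measured on Affymetrix mouse genome arrays. The authors deposited log2 values made by RMA, per the submitters' processing notes and the series' design text, with 1 column for each array. Software versions, and the number of RMA runs behind the 18 columns, were not given in the sources used here. Of 45101 probe sets, 64 controls were set aside. Of the other 45037, 34945 carried 1 gene symbol, 932 several and 9160 none. Only the first were used, with the brightest probe set for each of 18193 genes, and no dim genes were removed. Of these probe sets 34741 matched the RefSeq gene table by Entrez identifier, and no symbol was updated.

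Groups were compared with limma 3.58.1 (lmFit, eBayes) in R 4.3.3. P-values were adjusted by Benjamini and Hochberg's method across all 18193 genes. EPF with ENF and EPF with Dorsal used their own 6 arrays, and the sites used 12 arrays in 1 fit. The fit was run on simulated data with 1 spread per gene for all arrays of a comparison. That run cannot show how arrays of unequal spread affect the counts. Per-array values went to each collagen called in the comparison of EPF with ENF, in the F test or within a Cre line, to its chain partners, and in types with no call to the member with the largest F or difference. Col12a1, Col17a1 and Col22a1, the fibrillar chains not called and the chains named for EPF and Dorsal lie outside this rule. Among the 45 processing genes, Fkbp10, Adamts2, Adamts14, Loxl2 and Itga11 had no single-gene probe set here. Members, lists and rules were chosen with earlier results of these data known. Precision is limited by 3 arrays per group.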

Additional observations from a re-analysis of the deposited data

How the results depend on the processing

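With a filter on dim genes or quantile normalization every count stayed within 1.5 times its value. Array weights raised the collagen count to 27 in the F test over the sites, 25 between the Cre lines, 11 for Oral and Cranial, 8 for Ventral and Dorsal, 22 for Cranial and Dorsal, 18 for Oral and Dorsal, 21 for Oral and Ventral, 15 for Cranial and Ventral and 23 for EPF and Dorsal, and the processing genes in the F test to 30. The all-gene counts rose too, to 11606, 11424, 1926, 952, 10113, 8963, 7724, 8854 and 6657 of 18193 in that order. Without Dorsal 1 and Ventral 1 together, in that order up to Cranial and Ventral, the counts were 20, 19, 7, 5, 13, 14, 18 and 13, and 21 processing genes. The all-gene counts there were 7433, 8835, 772, 177, 6909, 6361, 5028 and 5611. With the arrays of the compared groups alone the collagen count was 9 for Oral and Cranial and 1 for Cranial and Dorsal. It was 2 for Oral and Dorsal, 16 for Oral and Ventral and 12 for Cranial and Ventral. The all-gene counts were 1795, 1242, 1065, 4925 and 6684 in that order. An ordinary F without shrinkage called 6 collagens, 7 processing genes and 3010 of all genes. With the mean of all probe sets the collagen count was 1 for EPF and ENF, 2 for Oral and Cranial and 7 for Cranial and Dorsal. The all-gene counts were 40, 246 and 2976. In that setting the F test called 6 processing genes (3449 of all genes). Col27a1 there reversed to -0.072 between the Cre lines, its probe sets being opposed. With all 18 arrays in 1 fit the collagen count was 21 for EPF and Dorsal (5678 of all genes). That fit called 1 processing gene for EPF and ENF (460 of all genes). An intensity trend with robust eBayes called 1 collagen for Oral and Cranial (221 of all genes). Without ENF 1 and EPF 2 together 0 collagens were called for EPF and ENF (4 of all genes). The causes of the other shifts were not tested.

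Leaving out 1 array gave 0 to 3 collagens for EPF and ENF, 6 to 19 in the F test (processing genes 6 to 19), 0 to 5 for Oral and Cranial, 0 to 2 for Ventral and Dorsal, 9 to 17 between the Cre lines, 0 to 11 for Cranial and Dorsal (3 with all arrays, 0 without Cranial 1, 1 without Cranial 2, 11 without Dorsal 1 and 8 without Dorsal 3), 1 to 10 for Oral and Dorsal (9 with all arrays, 1 to 5 without any 1 Oral or Cranial array and 4 without Dorsal 2), 7 to 15 for Oral and Ventral (10 with all arrays), 4 to 11 for Cranial and Ventral (7 with all arrays, 4 without Cranial 1, Cranial 3 or Ventral 2 and 11 without Dorsal 1) and 5 to 15 for EPF and Dorsal. The all-gene counts of these settings are not given here, so the ranges do not set collagens apart from other genes.

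Replicate numbers did not pair the arrays, with correlations of deviations from -0.384 to 0.302. With the replicate block 1 collagen was called for EPF and ENF (21 of all genes), Col11a1, and Col23a1 no longer was. The other counts stayed within 1.5 times. Between EPF and ENF, Col11a1 and Col23a1 stayed higher in EPF in 14 of 14 alternatives, with 8 and 9 of them keeping the call. With 3 arrays per group and shared spread, a collagen that was not called is not shown to be equal, and values near background have no reliable size.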
